A study of Homo sapiens with 2 samples.

Results

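Genes of DNA repair and of the DNA damage checkpoint were followed in HT29, an established line of human colon adenocarcinoma cells, after transfection with an siRNA against GATA6 or with a control siRNA. GATA6 is a transcription factor that binds GATA motifs through zinc fingers and is expressed in intestinal epithelium, and the study asked which genes depend on it in colon cancer cells. The groups were HT29 cells given the GATA6 siRNA and HT29 cells given the control siRNA, with 1 Affymetrix array each and no time after transfection given in the labels. Both were profiled as a transiently transfected bulk culture of a single cell line, so the arrays average over cells in all phases of the cell cycle, and fewer cells in a phase and less RNA per cell cannot be told apart.

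The members were taken by symbol alone, from names of the RAD, XRCC, MSH, MLH, PMS, ERCC and FANC families and a short list of other repair and checkpoint genes. Of the 13730 named genes other than small RNAs, 35 met this rule, measured by 37 probe sets. None of the 35 carried a FANC symbol. Fanconi anemia genes were represented by 4 members that bear other names, BRIP1, PALB2, RAD51C and XRCC2, and nucleotide excision repair by RAD23B alone. The core complex of the Fanconi pathway and most of excision repair were therefore not analysed here.

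DNA repair is divided by the kind of lesion. Mismatch repair removes errors left behind by the replication fork, base excision repair removes damaged or misplaced single bases, homologous recombination copies a broken duplex from the sister chromatid, and end joining reseals broken ends without a template. The Fanconi pathway unhooks crosslinks ahead of a stalled fork and hands the break to recombination. Checkpoint kinases slow the cycle while this happens. In proliferating cells, among them colon cancer lines, many of these genes are transcribed mainly when cells enter S phase, under E2F factors, whereas others are expressed throughout the cycle.

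Each deposited row was centred on its own median over the 2 arrays, so the GATA6 siRNA value and the control siRNA value of a gene are equal and opposite, and no expression level is left. They were read on the log2 scale, although the base is not stated, and each difference is the GATA6 siRNA value minus the control siRNA value. With 1 array per condition there is no replicate check and no p-value, so that the words lower and higher compare 1 array with 1 other. The size used for calling a gene lower or higher was 1.4-fold, which is 0.485 on the log2 scale and the size that the methods of the study set for decreases. The only spread that can be measured is between 2 probe sets of 1 gene, with an SD of 0.19 on the log2 scale over 470 genes. It compares probe sets within the same 2 arrays, so it does not cover error between arrays. The siRNA target itself was at -0.58 in the GATA6 siRNA array and 0.58 in the control siRNA array, a 2.22-fold lower value (log2 difference -1.15).

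As a group the repair genes were spread to both sides of 0, with more below than above. The log2 difference was below 0 for 22 of the 35 members (62.9%), compared with 48.5% of all named genes. The members lower by over 1.4-fold were UNG, CHEK1 and EXO1, 3 of 35 (8.57%), against 2.61% of all named genes. The members higher by over 1.4-fold were XRCC1 and RAD50, 2 of 35 (5.71%), against 3.56% of all named genes. Of all 35, 5 (14.3%) passed 1.4-fold in either direction, against 6.18% of all named genes. At a 1.2-fold size, 13 members (37.1%) were lower, against 8.65% of all named genes, and 4 members (11.4%) were higher, against 10.3%. The median difference was -0.10 for the members and 0 for all named genes. No member differed by over 2-fold, a size at which 0.24% of all named genes were lower and 0.364% higher. The zero point bears on these counts. Setting the median of 64 ribosomal protein genes to 0 added 0.11 to every difference and to the median of all named genes. On this ribosomal scale 16 of 35 members were below 0 and their median was 0.01, against 0.11 for all named genes. The lower quartile of all named genes, -0.08 before the shift, was then above 0. A smaller share of all named genes than of the members was therefore below 0, which bears on every count below 0 on this scale. UNG alone, 1 of 35, was lower by over 1.4-fold, against 1.49% of all named genes. XRCC1 and RAD50, 2 of 35 (5.71%), were higher, against 5.83%. The size of the differences was modest, and 17 of the 35 members lay nearer to 0 than the SD of 0.19 between probe sets. That SD is over all 470 genes and was smaller, 0.12, in 32 of the pairs described below, so this count depends on the pairs used.

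**Figure D1:**
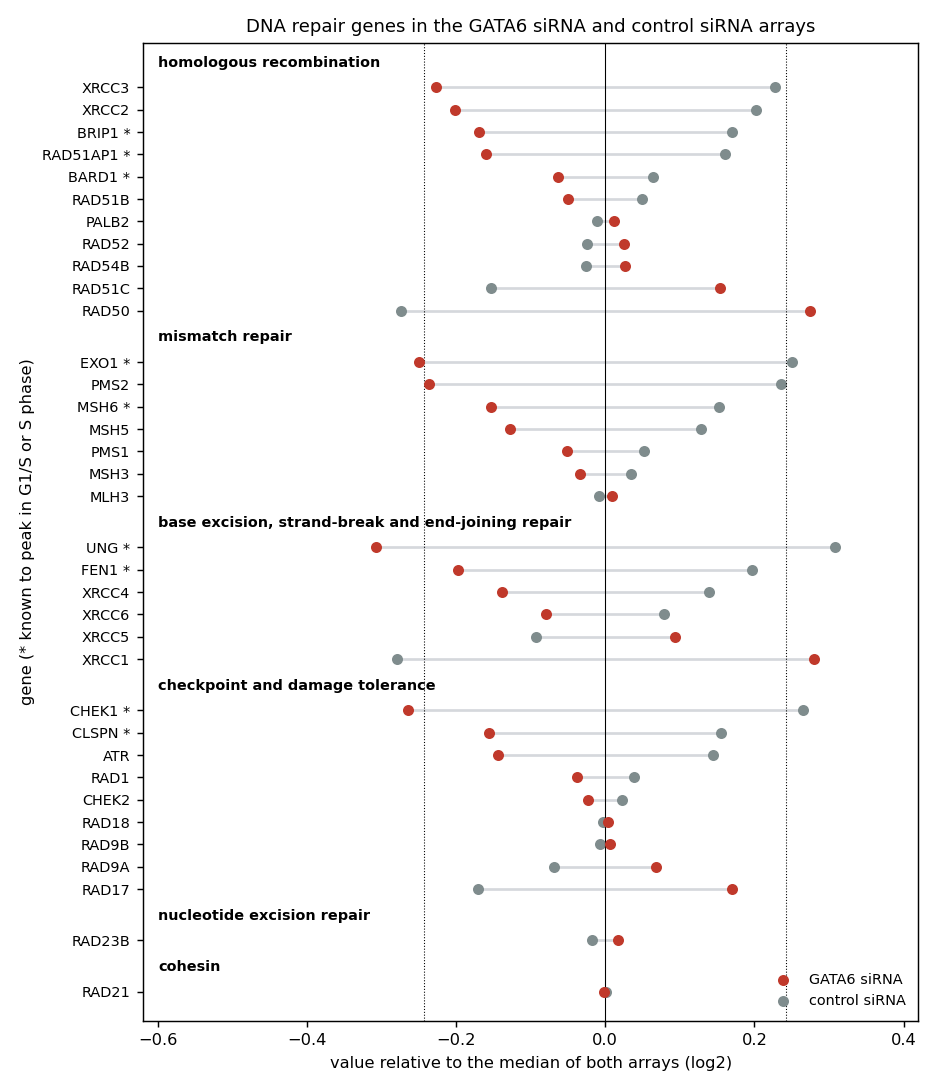
Value of each repair gene in the GATA6 siRNA array (red) and in the control siRNA array (grey), in log2 units relative to the median of both arrays, grouped by role and ordered by difference; dotted lines mark where the 2 arrays would differ by 1.4-fold, and an asterisk marks genes known to peak in G1/S or S phase. The widest red-left pairs are UNG, CHEK1 and EXO1, and the widest red-right pairs are XRCC1 and RAD50.

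The members were not lower evenly. From textbook knowledge, 9 of the 35 are genes whose transcripts peak in G1/S or S phase, namely UNG, CHEK1, EXO1, FEN1, BRIP1, RAD51AP1, CLSPN, MSH6 and BARD1. All 9 had differences below 0, between -0.62 and -0.13, with a median of -0.34, and 3 of them passed 1.4-fold. The other 26 members had 13 values below 0 and 13 above, a median of 0.0016 and a range of -0.47 to 0.56, and none of them was lower by over 1.4-fold. The 2 sets overlapped, since PMS2, XRCC3 and XRCC2 of the second set were as low as the first. On the ribosomal scale the 9 genes had a median of -0.23 and were all still below 0, and only UNG passed 1.4-fold. The other 26 then had a median of 0.11, as did all named genes.

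Other lists of the cell cycle were set beside these genes. Of 24 named S phase genes that are not repair genes, 23 had values below 0. Of the 24, 15 (62.5%) were lower by over 1.4-fold, against 2.61% of all named genes. The median was -0.51, or -0.40 with 22 below 0 on the ribosomal scale. Among these genes were the chromatin factor CDCA7 (-1.16), the thymidylate synthase TYMS (-0.94) and E2F8 (-0.79), while the activator E2F1 was at -0.70. Of 23 genes of G2 and mitosis, 20 were below 0, with a median of -0.19, or -0.08 on the ribosomal scale. HMMR (-0.94) and KIF2C (-0.51), 2 of 23 (8.70%), were lower by over 1.4-fold. By their medians the S phase repair genes lay between the S phase and the mitotic lists. Of 11 p53 target genes, a class induced after DNA damage in cells with active p53, 5 were below 0 and 6 above. Their median was 0.02, and only TP53INP1 (1.44) was higher by over 1.4-fold, 1 of 11 (9.09%), against 3.56% of all named genes. These lists were chosen with earlier results of the same arrays known, and their members were not picked by value. The share of cells in S phase was not measured, and the part of such a share in the repair values was not tested.

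**Figure D2:**
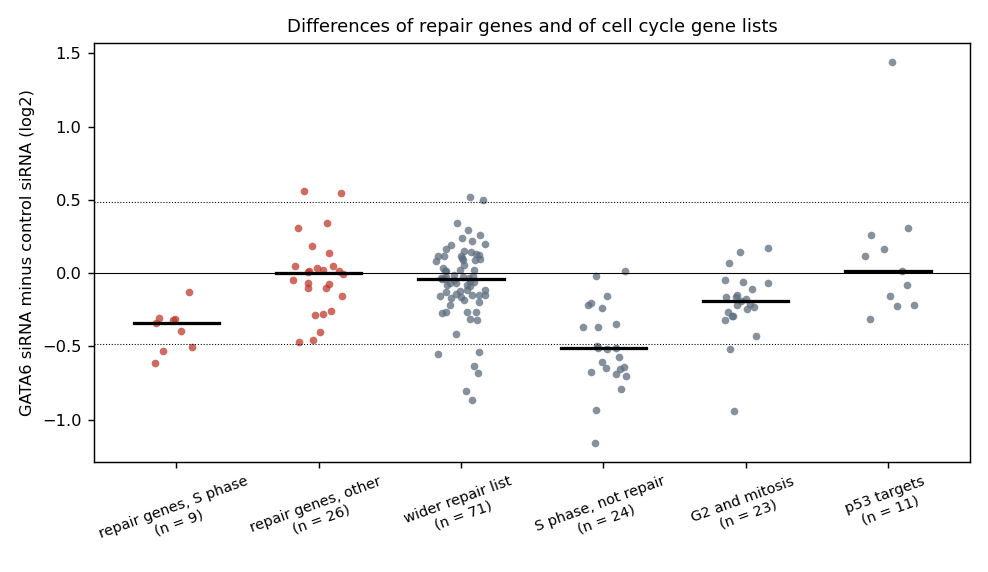
Log2 difference (GATA6 siRNA minus control siRNA) of single genes in the 9 S phase and 26 other repair members (red) and in 4 further lists (grey), with a bar at each median and dotted lines at 1.4-fold. The medians are -0.34 for S phase repair genes, 0.0016 for the other repair genes, -0.04 for the wider repair list, -0.51 for S phase genes outside repair, -0.19 for G2 and mitosis and 0.02 for p53 targets.

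Base excision and end-joining genes held both extremes of the members. UNG, the uracil DNA glycosylase that removes uracil from DNA, was at -0.31 in the GATA6 siRNA array and 0.31 in the control siRNA array, which is 1.53-fold lower and rank 186 from the lowest of 13730 genes. FEN1, the endonuclease that trims flaps of Okazaki fragments and of long-patch repair, had a difference of -0.39 (1.31-fold lower). XRCC1, the scaffold that holds the ligase and the end-processing enzymes at single-strand breaks, was at 0.28 in the GATA6 siRNA array and -0.28 in the control siRNA array, 1.47-fold higher and rank 336 from the highest. These genes serve the same pathway and stood at opposite ends. Of the enzymes that work around XRCC1, the sensor PARP1 was 1.45-fold lower (-0.54) and its relative PARP2 had a difference of 0.12. The other glycosylases that act on uracil or thymine in mismatches differed little, with values of -0.16 for SMUG1, -0.04 for TDG and -0.04 for MBD4, and UNG stood apart from them in size. In end joining, the Ku subunits XRCC5 and XRCC6, which form 1 heterodimer on broken ends, had differences of 0.19 and -0.16, and the ligase cofactor XRCC4 of -0.28. All 3 were within 1.4-fold.

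Mismatch repair genes had 6 of 7 values below 0 and a median of -0.26, or 4 of 7 and -0.14 on the ribosomal scale, where PMS1 and MSH3 were above 0. EXO1, the exonuclease that resects the mismatched strand, was at -0.25 in the GATA6 siRNA array and 0.25 in the control siRNA array and just passed the size (1.41-fold lower, difference -0.50). PMS2, the endonuclease subunit of the main MutL complex, lay just short of it (1.39-fold lower, -0.47). PMS2 has pseudogenes of nearly the same sequence, and whether its probe set tells them apart is not known here. The mismatch-recognition subunits were ordered with MSH6, which reads base mismatches and small loops, at -0.31, and MSH3, which reads larger loops, at -0.07. Their gap of -0.24 (MSH6 minus MSH3) was within the SD of 0.27 that a gap between 2 such values has from the spread between probe sets over all 470 genes. That spread was smaller, 0.12, in 32 of the pairs, described below, so the comparison depends on the pairs used. The minor MutL partners were nearer to 0, PMS1 at -0.10 and MLH3 at 0.02. MSH5, a MutS homolog of meiotic crossing over, was measured by 2 probe sets with differences of -0.23 and -0.28.

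Genes of homologous recombination had 6 of 11 values below 0 and a median of -0.10, or 5 of 11 and 0.01 on the ribosomal scale, and they were divided. XRCC3 and XRCC2 had differences of -0.46 (1.37-fold lower) and -0.40 (1.32-fold lower), whereas RAD51C had 0.31 (1.24-fold higher) and RAD51B -0.10. RAD51C and XRCC3 bind each other as a stable pair, and their differences were 0.76 apart. Other recombination factors were lower by under 1.4-fold. BRIP1, a helicase of the Fanconi pathway, had a difference of -0.34, RAD51AP1 of -0.32, and BARD1, a subunit of a ubiquitin ligase that acts at breaks, of -0.13. PALB2 (0.02), the annealing factor RAD52 (0.05) and the translocase RAD54B (0.05) were near 0, while RAD54L, the paralog of RAD54B that the rule does not take in, was 1.60-fold lower (-0.68). RAD50, the coiled-coil ATPase that tethers broken ends, was at 0.27 in the GATA6 siRNA array and -0.27 in the control siRNA array, 1.46-fold higher. Its partners in the same complex had differences of 0.29 for NBN and -0.17 for MRE11, neither past 1.4-fold.

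Checkpoint and damage tolerance genes had 5 of 9 values below 0 and a median of -0.05, or 3 of 9 and 0.07 on the ribosomal scale, and the low values were those of CHEK1, CLSPN and ATR. CHEK1, the effector kinase of replication stress, was at -0.27 in the GATA6 siRNA array and 0.27 in the control siRNA array, 1.44-fold lower, while CHEK2, the effector kinase of the double-strand break branch, had a difference of -0.05. Copies of part of CHEK2 elsewhere in the genome could share its probes, which was not examined. ATR, the kinase above CHEK1, had a difference of -0.29 and its partner ATRIP of 0.02. The clamp that helps to activate ATR was close to 0, with RAD9A at 0.14, its paralog RAD9B at 0.01, RAD1 at -0.08 and HUS1 at 0.05, whereas the clamp loader RAD17 had 0.34 (1.27-fold higher). RAD18, the ubiquitin ligase of damage tolerance, had 0.0063. Its conjugating enzyme UBE2A was 1.43-fold higher (0.52) and UBE2B had 0.24, while their substrate PCNA was 1.74-fold lower (-0.80), and USP1, which removes that ubiquitin, 1.55-fold lower (-0.63). The excision factor RAD23B (0.03) and the cohesin subunit RAD21 (-0.0032) were at 0 within the SD between probe sets.

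CLSPN, the adaptor that presents CHEK1 to ATR at the fork, depended on which of its 2 probe sets was read. The differences were -0.59, which is 1.5-fold lower, and -0.04, a gap of 0.55, so that the mean of -0.31 lay within 1.4-fold. Neighbouring probe set numbers mostly belonged to genes of 1 strand, so the 40 nearest named probe sets, 20 on each side, were used to place a probe set on a strand, since its coordinates were not used here. CLSPN is a minus-strand gene. Around the probe set at -0.59, 39 of the 40 neighbours belonged to minus-strand genes, whereas around the probe set at -0.04, 38 of 40 belonged to plus-strand genes. Taking 75% of the neighbours as the limit, 25 of the 34 member probe sets with a known gene strand lay among neighbours of that strand. Another 1 lay among neighbours of the opposite strand, and 8 among mixed neighbours. These 8 were both probe sets of MSH5 and those of CHEK1, EXO1, XRCC2, XRCC3, RAD18 and RAD52. For CHEK1 and for EXO1, both lower by over 1.4-fold, 28 of 40 neighbours belonged to genes of the same strand. Without the probe set at -0.04, CLSPN joined the members lower by over 1.4-fold, which became 4 of 35. This reading was added after the values had been seen.

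The same feature occurred widely among genes with 2 probe sets. In 248 of the 470 pairs, 1 probe set lay among neighbours of its gene's strand and the other among neighbours of the opposite strand, at the same limit. The opposite-strand probe sets passed 1.4-fold in 4 of 248 cases (1.61%) and had an SD of 0.13, compared with 16 of 248 (6.45%) and an SD of 0.25 for their same-strand partners. In the 32 pairs with both probe sets among neighbours of the gene's strand, 1 of 64 probe sets (1.56%) passed 1.4-fold and the SD was 0.15. The SD between the 2 probe sets of a gene was 0.12 in these 32 pairs and 0.19 in the 248 pairs. The SD used as a measure of spread elsewhere is that over all 470 pairs. The value of a gene with 2 probe sets here was the mean of both.

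**Figure D3:**
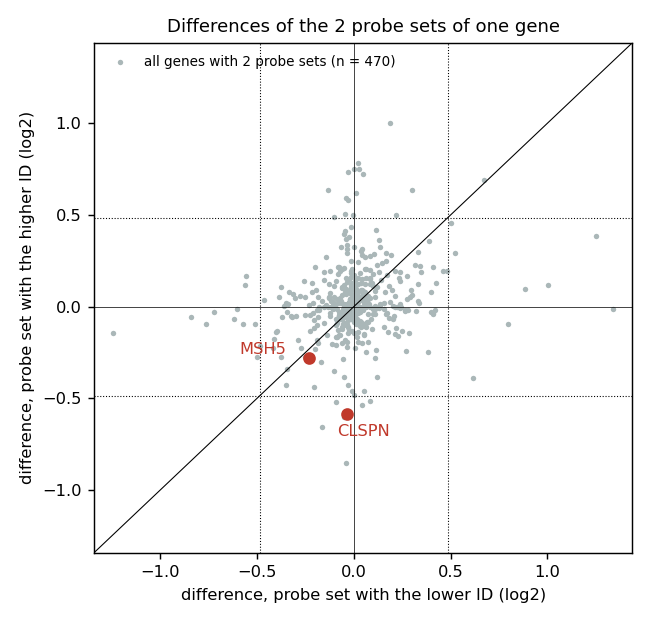
Log2 difference (GATA6 siRNA minus control siRNA) of the probe set with the higher ID against that with the lower ID, for 470 genes with 2 probe sets; the diagonal marks equal values and the dotted lines 1.4-fold. MSH5 lies near the diagonal (-0.23 and -0.28), while CLSPN lies on the vertical axis (-0.04 and -0.59), where 1 probe set is near 0.

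Repair genes outside the rule were counted from a wider list. Of 113 listed genes 71 were named, with 43 below 0, 6 lower (8.45%, against 2.61% of all named genes) and 2 higher (2.82%, against 3.56%) by over 1.4-fold and a median of -0.04, or 27 below 0 and a median of 0.07 on the ribosomal scale. The 6 lower were MDC1, a mediator of the damage response (-0.86), PCNA (-0.80), RAD54L (-0.68), USP1 (-0.63), the glycosylase NEIL3 (-0.55) and PARP1 (-0.54). The 8 probe sets of MDC1 lay between -0.90 and -0.70. Whether these probe sets, or the 2 of MSH5, share probe sequences was not examined, so their closeness does not count as replication. The 2 higher, named after their values were seen, were UBE2A (0.52) and WEE1, the kinase that holds back CDK1 (0.50). Further Fanconi genes under other names had small differences, with UBE2T, the conjugating enzyme of the pathway, at -0.32, RFWD3 at -0.20, FAAP100 at -0.15, the nuclease scaffold SLX4 at -0.09 and MAD2L2 at 0.12.

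Promoter sequence was examined as a feature that the rule did not use. The RefSeq promoter table (GRCh38.p14) held windows of 300 bases, 250 before the annotated start and 50 from it on, for 32 of the 35 members, 47 windows in all. They were searched on both strands for the E2F consensus in 4 forms, TTTCCCGC, TTTGGCGC, TTTCGCGC and TTTGCCGC, then for the shorter forms TTCCCGC and, likewise, TTGGCGC, which lie inside the first 2, and for the GATA motifs AGATAA or AGATAG or TGATAA or TGATAG. An 8-letter E2F form was found in 8 of the 32 members (25%), compared with 5.58% of 9704 named protein-coding genes with a window and with 70.0% of the S phase genes outside repair. A GATA motif was found in 3 of the 32 members (9.38%), EXO1, RAD51B and RAD18, compared with 23.3% of the protein-coding genes. A match is a run of letters and not a bound site, and genes with several windows had more chances of one.

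All 8 members with an 8-letter E2F form were below 0, between -0.62 and -0.07, with a median of -0.36, whereas on the ribosomal scale MSH3 lay above 0 and the median was -0.25. They were UNG, EXO1, PMS2, XRCC2, CLSPN, MSH6, XRCC6 and MSH3. The 24 members without one had a median of -0.06 and ranged from -0.53 to 0.56, with 13 below 0, so the 2 sets overlapped. Of these 8, 4 belonged to the S phase genes named above. When the 7-letter forms were counted as well, the 17 members with a match had a median of -0.31, with 14 below 0. The 15 without one had a median of 0.0063, with 7 below 0. Over all protein-coding genes the split was in the same direction and much smaller. The 541 genes with an 8-letter form had a median of -0.02, with 54.5% below 0, 6.29% lower and 2.40% higher by over 1.4-fold. The 9163 genes without one had a median of 0, with 47.5% below 0, 2.71% lower and 4.03% higher. With both lengths counted, the 1644 genes with a match had a median of -0.0098, with 51.4% below 0, 4.68% lower and 3.47% higher. The 8060 genes without a match had a median of 0, with 47.2% below 0, 2.54% lower and 4.03% higher.

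**Figure D4:**
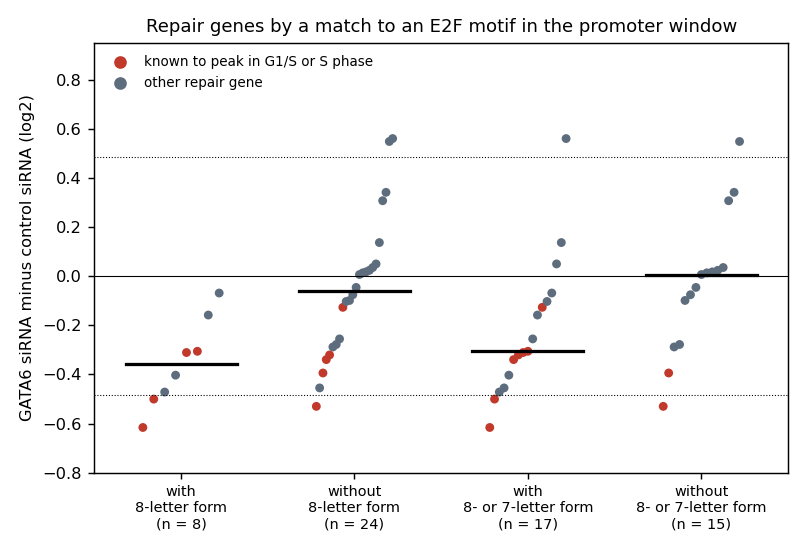
Log2 difference (GATA6 siRNA minus control siRNA) of the repair members with and without an E2F form in the promoter window, for the 8-letter forms alone (8 and 24 members) and for both lengths (17 and 15 members); points are ordered by value within a column, red marks genes known to peak in G1/S or S phase, bars are medians and dotted lines 1.4-fold. All 8 members in the first column are below 0 (7 of 8 on the ribosomal scale), and XRCC1 is the highest point of the third.

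The windows of 5 lower S phase genes, which are not the 5 lowest, and of the 2 members higher by over 1.4-fold are shown as examples with and without a form. Each runs from 160 bases before the annotated start to 30 bases from it on, 5′ to 3′ on the strand of the gene, and capitals mark E2F and GATA forms. In UNG the capitals are 2 overlapping copies of TTGGCGC on opposite strands next to the start. In CLSPN an 8-letter form on the opposite strand spans the start, and in EXO1 and MSH6 one begins at base 5 and at base 4 from the start. CHEK1, although among the 3 lower genes, holds none of the forms in the window shown or in its 2 other windows. FEN1 (-0.39), an S phase gene that was lower than CLSPN and MSH6 and is not shown, holds no E2F form either. RAD50 holds none of the forms, and XRCC1 holds a 7-letter form far before the start.
UNG (chr12:109097437-109097626, plus strand): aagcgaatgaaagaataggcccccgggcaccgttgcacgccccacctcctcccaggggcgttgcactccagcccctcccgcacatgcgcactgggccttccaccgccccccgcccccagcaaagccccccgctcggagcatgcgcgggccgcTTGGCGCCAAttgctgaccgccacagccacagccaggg
CLSPN (chr1:35769949-35770138, minus strand): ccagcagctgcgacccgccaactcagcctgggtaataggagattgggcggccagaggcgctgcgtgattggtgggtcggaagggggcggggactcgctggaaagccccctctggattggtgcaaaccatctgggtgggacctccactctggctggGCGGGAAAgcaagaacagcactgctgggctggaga
EXO1 (chr1:241848044-241848233, plus strand): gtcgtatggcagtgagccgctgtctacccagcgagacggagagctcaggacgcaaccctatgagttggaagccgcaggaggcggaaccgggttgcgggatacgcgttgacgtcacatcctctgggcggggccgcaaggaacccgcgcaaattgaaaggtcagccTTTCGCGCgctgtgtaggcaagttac
MSH6 (chr2:47782985-47783174, plus strand): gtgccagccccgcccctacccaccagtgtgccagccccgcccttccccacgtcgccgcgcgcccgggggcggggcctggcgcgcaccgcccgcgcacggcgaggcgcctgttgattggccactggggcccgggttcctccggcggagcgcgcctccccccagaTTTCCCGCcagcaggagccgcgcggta
CHEK1 (chr11:125626064-125626253, plus strand): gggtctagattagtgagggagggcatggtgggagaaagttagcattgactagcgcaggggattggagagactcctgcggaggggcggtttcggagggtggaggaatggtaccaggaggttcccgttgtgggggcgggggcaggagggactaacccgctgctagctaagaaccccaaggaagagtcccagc
XRCC1 (chr19:43575498-43575687, minus strand): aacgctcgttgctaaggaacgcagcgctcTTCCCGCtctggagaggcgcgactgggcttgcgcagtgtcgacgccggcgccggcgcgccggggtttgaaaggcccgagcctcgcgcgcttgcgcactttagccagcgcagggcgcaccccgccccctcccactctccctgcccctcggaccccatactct
RAD50 (chr5:132556817-132557006, plus strand): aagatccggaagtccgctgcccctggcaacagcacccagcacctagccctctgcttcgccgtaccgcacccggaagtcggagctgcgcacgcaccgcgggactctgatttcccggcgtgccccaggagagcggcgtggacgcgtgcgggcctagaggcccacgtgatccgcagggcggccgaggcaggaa
The second window of EXO1, at a start further downstream, holds its GATA form AGATAA at base -150, and the second window of UNG holds the 8-letter form TTTGCCGC from base -63 to base -56, counted from the start. Windows not shown also held E2F forms near the start. Counting any form within 15 bases of the start, 9 members had one, 8 of them below 0, with a median of -0.32. The same count was not made over all protein-coding genes, so no share stands beside it. The limit of 15 bases was not varied: it just took in RAD51AP1 (bases -21 to -15) and left out XRCC2 (bases 22 to 29). Beside UNG (-0.62), EXO1 (-0.50), CLSPN (-0.31) and MSH6 (-0.31), the 9 members were XRCC3 (-0.46), BRIP1 (-0.34), RAD51AP1 (-0.32), BARD1 (-0.13) and RAD9A, which was above 0 (0.14). By contrast, CHEK1 and FEN1, without a form, had -0.53 and -0.39.

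Markers were checked as far as values without levels allow. Of 9 named markers of colon epithelium, 9 were above 0, against 6629 of 13730 named genes, and 4 (44.4%) were higher by over 1.4-fold, against 3.56%. The rise was uneven, with CEACAM5 at 2.16 and KRT20 at 1.89. VIL1 (0.02), CDX2 (0.02) and CDX1 (0.11) lay nearer to 0 than the SD between probe sets. Of 6 named markers of other cells none passed 1.4-fold, and they lay between -0.41 for DES and 0.47 for LYZ. Whether any of these genes is expressed cannot be read from these values.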

How the data were processed

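Total RNA of HT29 cells was run by the authors on Affymetrix arrays (Human Gene 2.0 ST, 1 color) and evaluated in GeneSpring, per the methods of the study. The authors deposited 1 table of 44629 probe sets with log2 values (base inferred), in which the 2 values of a row sum to 0 within 1e-06 and each column's median is 0. For summarization, normalization and filters the sources used here give no detail. If a floor was added before the logarithm, differences of weak genes are understated. By its title the control was reanalyzed, in a way not described.

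A table of the array's annotation named 15835 probe sets, 14812 symbols, and small RNAs were left out, leaving 13730 genes. Probe sets of 1 gene were averaged. With 1 array per group no test was run. The members, lists and motifs were chosen with earlier results of these data known. Every member could be named, and from other lists the largest differences. Partners of the same complex (such as ATRIP, HUS1, NBN, MRE11, PARP2, SMUG1, TDG, MBD4, UBE2B and the Fanconi genes under other names) and E2F1 lie outside that rule and were named for their role after their values were seen. Counting was tested on shifted values in Python 3.11.15 with pandas 2.3.3. The number of arrays limits the precision.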

Additional observations from a re-analysis of the deposited data

How the results depend on the processing

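No paired analysis was possible because there was 1 array of GATA6 siRNA and 1 of control siRNA, which also leaves no replicate to drop. Of 11 alternatives, 2 were chosen after seeing the data, namely protein-coding genes only and the removal of probe sets among IDs of the opposite strand. Members lower by over 1.4-fold numbered 3 of 35 as reported, 1 on the ribosomal scale, 5 with quantile normalization (PMS2 and XRCC3 joined), 0 at a 2-fold size and 13 at a 1.2-fold size. Members higher by over 1.4-fold numbered 2 as reported, 0 at 2-fold and 4 at 1.2-fold. On the ribosomal scale 6 members near 0 changed sign (CHEK2, MSH3, PMS1, RAD1, RAD21 and RAD51B), which left 16 below 0. The median over the members was then 0.01, against 0.11 for all named genes, whose lower quartile was above 0. Over all named genes that scale left 1.49% lower and 5.83% higher, and quantile normalization 3.1% and 3%. The columns mirror each other, so quantile normalization balances decreases and increases by construction. GATA6 stayed lower by over 1.4-fold in every alternative that gives it a value. CLSPN was the only single member to move beyond the SD between probe sets, to -0.59 without its opposite-strand probe set. Few members could move that far. The ribosomal scale shifted each by 0.11, less than that SD, and choices among probe sets could not change the 33 members with 1 probe set. On the ribosomal scale CHEK1 (-0.42) and EXO1 (-0.39) came within 1.4-fold. Adding 10 repair genes through synonyms gave 4 lower and 3 higher of 45, with RAD54L and UBE2A as the additions past 1.4-fold. Without levels, signal over background could not be judged.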

Other observations

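Some partners in 1 protein complex had values of opposite sign: XRCC5 and XRCC6 were 0.35 apart on the log2 scale, RAD51C and XRCC3 were 0.76 apart, and RAD50 (0.55) stood above MRE11 (-0.17). Of these, XRCC5, XRCC6 and MRE11 each lay nearer to 0 than the SD of 0.19 between probe sets over all 470 genes. Each lay beyond the SD of 0.12 in the 32 same-strand pairs, so the comparison depends on the pairs used. With 1 array per group, neither SD resolves their side of 0. Other partners lay on the same side, such as RAD50 and NBN (0.29). A gap between 2 values has an SD of 0.27 from the spread between probe sets of 1 gene over all 470 genes. With no replicate arrays these gaps are values of 2 arrays and no more.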
